A study of Mus musculus with 4 samples.

Results

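The transcripts described here are 10 mRNAs made from the mitochondrial genome of the mouse heart. They are mt-Nd1, mt-Nd2, mt-Nd3, mt-Nd4, mt-Nd5, mt-Cytb, mt-Co1, mt-Co2, mt-Co3 and mt-Atp6. They were chosen by gene symbol, and all 10 were found among the 21885 genes of the count tables. The tables held 3 other mitochondrially encoded genes, mt-Atp8, mt-Nd4l and mt-Nd6, which brought the mitochondrial (mt) total to 13. The 10 transcripts carried between 99.7% and 99.8% of all mt UMIs in each section, a UMI being a molecular tag that counts 1 captured RNA molecule.

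Expression was mapped on Visium arrays, which capture polyadenylated RNA on a grid of spots that can each cover several cells. The 4 sections came from 4 hearts of mice aged 8 to 12 weeks. Genotype was Collagen1a1-GFP+ throughout, so the uninjured control heart carried the fibroblast reporter as well. The other hearts were taken after myocardial infarction by ligation of the left anterior descending coronary artery, 1 at 3 days post infarction (3 dpi) and 2 at 5 dpi. The pair of 5 dpi hearts is told apart by the sex on the label, although 718 UMIs of Y-linked genes lay in the female-labelled heart and 1 in the male-labelled heart.

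Mitochondria keep a small circular genome whose mRNAs all encode subunits of the oxidative phosphorylation machinery in the inner membrane. The mt-Nd genes encode subunits of complex I (NADH dehydrogenase), mt-Cytb encodes cytochrome b of complex III, mt-Co1 to mt-Co3 form the catalytic core of complex IV (cytochrome c oxidase), and mt-Atp6 encodes a part of the proton channel of complex V (ATP synthase). Apart from mt-Nd4l and mt-Nd6 of complex I and mt-Atp8 of complex V, all other subunits of these complexes, and all of complex II, are encoded in the nucleus. Cardiomyocytes are among the cells richest in mitochondria, and much of the polyadenylated RNA of heart muscle is mitochondrial.

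All 10 genes were matched by Ensembl identifier to the GENCODE M21 annotation of GRCm38, where each is 1 exon without introns on the plus strand of the mitochondrial chromosome. Of the complex I genes, mt-Nd1 lies at chrM:2751-3707, mt-Nd2 at chrM:3914-4951, mt-Nd3 at chrM:9459-9806, mt-Nd4 at chrM:10167-11544 and mt-Nd5 at chrM:11742-13565. The complex III gene mt-Cytb lies at chrM:14145-15288. The complex IV genes lie at chrM:5328-6872 (mt-Co1), chrM:7013-7696 (mt-Co2) and chrM:8607-9390 (mt-Co3), and mt-Atp6 of complex V lies at chrM:7927-8607. The annotated genes run from 348 bases (mt-Nd3) to 1824 bases (mt-Nd5). Some of them overlap a neighbour: mt-Atp6 shares 43 bases with mt-Atp8 and 1 base with mt-Co3, mt-Nd4 shares 7 bases with mt-Nd4l, and mt-Nd5 shares 14 bases with mt-Nd6 on the opposite strand. UMIs within the overlaps on 1 strand cannot be assigned to 1 gene. The last 30 bases of each gene are shown because the poly(A) tail, by which the array captures RNA, starts at or beyond this end, with the letters of the stop codon in capitals.
mt-Nd1: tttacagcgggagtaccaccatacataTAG
mt-Nd2: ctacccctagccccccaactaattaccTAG
mt-Nd3: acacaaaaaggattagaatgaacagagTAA
mt-Nd4: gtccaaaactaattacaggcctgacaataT
mt-Nd5: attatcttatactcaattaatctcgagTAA
mt-Cytb: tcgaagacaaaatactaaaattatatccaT
mt-Co1: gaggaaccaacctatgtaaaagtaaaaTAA
mt-Co2: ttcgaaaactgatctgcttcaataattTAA
mt-Co3: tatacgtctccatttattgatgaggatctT
mt-Atp6: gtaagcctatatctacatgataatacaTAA
In 7 of the 10 genes the annotated sequence ended in a complete stop codon. In the other 3, mt-Nd4, mt-Cytb and mt-Co3, it ended in the T alone, and the poly(A) tail is known to complete such stop codons in mitochondria.

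In whole sections, the 10 transcripts together made up 40.2% of all UMIs in the control, 21.5% at 3 dpi, with 14.2% in the female-labelled and 14.3% in the male-labelled 5 dpi heart. In these pooled shares the 5 dpi hearts were close (14.2% ± 0.0307, SD, n = 2), but the medians of their spots were not, with 5.14% and 15.3% against 21.3% at 3 dpi and 40.1% in the control. With 1 section each in the control and at 3 dpi, no test of these groups was made. The sections held 1175, 1825, 1572 and 1424 tissue spots in the same order, with 6372017 to 11271893 UMIs, so that the exact 95% binomial interval of the control share ran only from 40.2% to 40.2%. Such intervals cover counting error alone. In a section, fewer cells of a type and less RNA per cell cannot be told apart.

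Spots differed far more within the infarcted sections than within the control. In the control the mt share of the spots had a 10th percentile of 32.4%, a median of 40.3% and a 90th percentile of 46.1%. At 3 dpi these values were 3.65%, 21.4% and 43.5%. They were 1.36%, 5.16% and 42.8% in the female-labelled heart and 0.784%, 15.4% and 31.7% in the male-labelled heart. The 90th percentile lay above the control median at 3 dpi and in the female-labelled heart and below it in the male-labelled heart, whose highest spot had 41.1%.

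**Figure D1:**
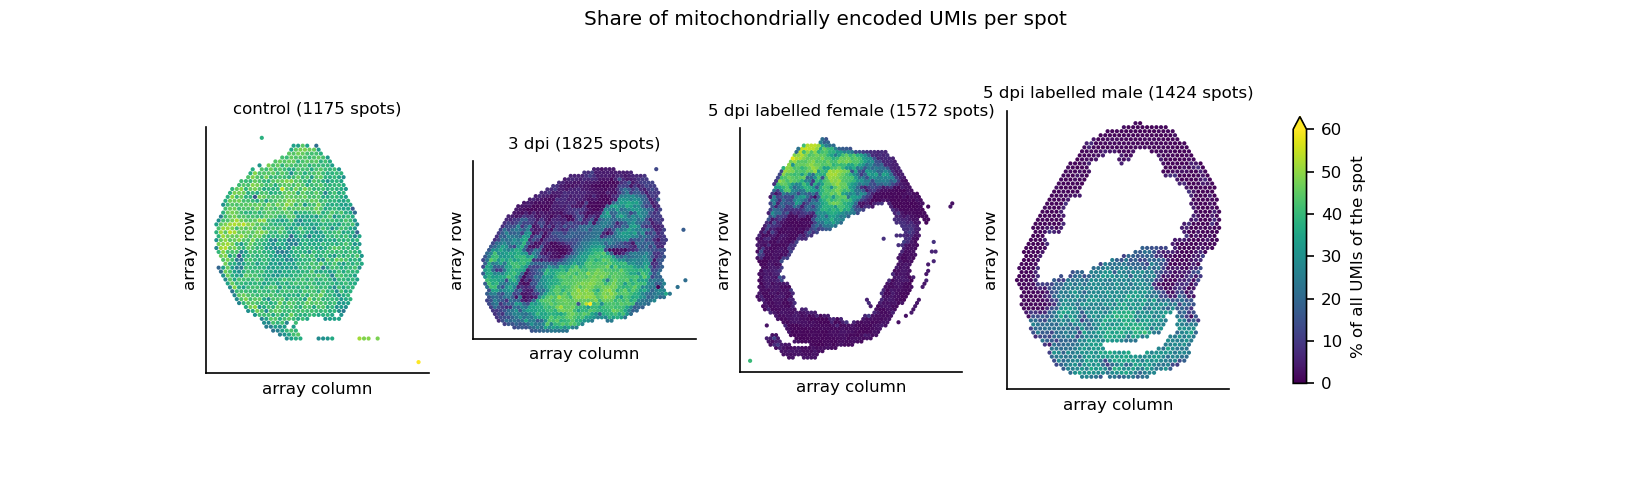
Maps of the 4 sections with 1 point per tissue spot, placed by array column and row. Colour gives the percentage of the spot's UMIs that came from the 10 transcripts (scale capped at 60%). The control spots centred on a median of 40.1%, and the infarcted sections show a high area beside a large area near 0.

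Expressed as CPM, here UMIs per 1000000 non-mt UMIs, each of the 10 transcripts was lower in all 3 infarcted sections than in the control. mt-Co1, the main catalytic subunit of cytochrome c oxidase, stood at 168571 CPM in the uninjured heart and 68569 at 3 dpi, and the 5 dpi hearts gave 41545 and 38303. mt-Co3, another core subunit of that enzyme, stood at 141350 CPM in the uninjured heart, at 58723 at 3 dpi, and at 34294 and 39221 in the 5 dpi hearts. The control lay 2.46-fold above the nearest infarcted section for mt-Co1 and 2.41-fold for mt-Co3. The third core subunit, mt-Co2, had 72234 CPM in the control, 29446 at 3 dpi, then 18407 and 12836.

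The other complexes showed the same order of groups. mt-Cytb measured 70372 CPM without infarction, 27605 at 3 dpi, then 17081 and 24161 in the later pair of hearts. mt-Atp6 measured 65019, 32197, 19552 and 17417 in the same order of sections. Among the complex I transcripts, mt-Nd4 was at 47366, 17214, 11534 and 11252, and mt-Nd1 at 44882, 17590.4, 10552 and 9258. The control was higher than every infarcted section for each of them, and the 5 dpi sections lay closer to each other than to the control.

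mt-Nd2 was at 44586 CPM without infarction and 14067 at 3 dpi, then at 8082 and 9798. mt-Nd3 was at 14586, 7453, 3948 and 3278 in that order. mt-Nd5 was at 5020.0, 1337, 826 and 889. The control lay above the nearest infarcted section by 3.75-fold for mt-Nd5, the widest gap of the 10, and by 1.96-fold for mt-Nd3, the narrowest. At least a 2-fold gap between the control and every infarcted section was thus met by 9 of the 10 transcripts, beside 8.9% of the 3529 genes with at least 50 CPM in some section. Of the 10, none was at least 2-fold higher in every infarcted section, beside 25.7% of these genes.

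Levels of different genes were compared per kilobase of gene length, as CPM per kilobase, although UMIs are counted by captured 3′ ends and not along the length. On this scale mt-Co3 ranked the highest of the 13 in all 4 sections, with 180293 in the control and 43742 and 50027 at 5 dpi. Without division by length, mt-Co1 had the highest CPM in the control, at 3 dpi and in the female-labelled heart, and mt-Co3 in the male-labelled heart. Per kilobase, mt-Co1, mt-Co2 and mt-Atp6 followed in the control at 109107, 105605 and 95476. The order of these 3 was not fixed, since the female-labelled 5 dpi heart gave 26890.1, 26911 and 28711 for them and the male-labelled heart 24791, 18766 and 25575. mt-Cytb ranked 5, 5, 5 and 4 in the 4 sections. mt-Nd5 was the lowest of the 10 throughout, with 2752 CPM per kilobase in the control and 453 and 488 at 5 dpi.

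Of the mt genes outside the 10, mt-Nd6 is the only one read from the opposite strand, and its 56, 24, 25 and 12 UMIs in the 4 sections allow no more than its listing. mt-Atp8 and mt-Nd4l share a bicistronic mRNA with mt-Atp6 and mt-Nd4 and precede them on it. They held 0.0819% and 0.259% of the mt UMIs in the control, against 9.61% for mt-Atp6.

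To compare spots of different make-up, each spot was given its share of 12 cardiomyocyte genes in non-mt UMIs. The genes were Myh6, Tnnt2, Tnni3, Actc1, Myl2, Myl3, Pln, Mb, Ckm, Tcap, Ryr2 and Ttn, which encode contractile, calcium-handling and energy-store proteins of heart muscle. Spots were called poor, low, intermediate or rich when this share was under 0.25, 0.25 to 0.5, 0.5 to 0.75 or at least 0.75 times the 90th percentile of their own section. In the control, 1122 of 1175 spots were rich and only 4 were poor or low. The infarcted sections held 535, 967 and 592 poor spots and 527, 292 and 509 rich spots, in the order 3 dpi, female-labelled and male-labelled 5 dpi.

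**Figure D2:**
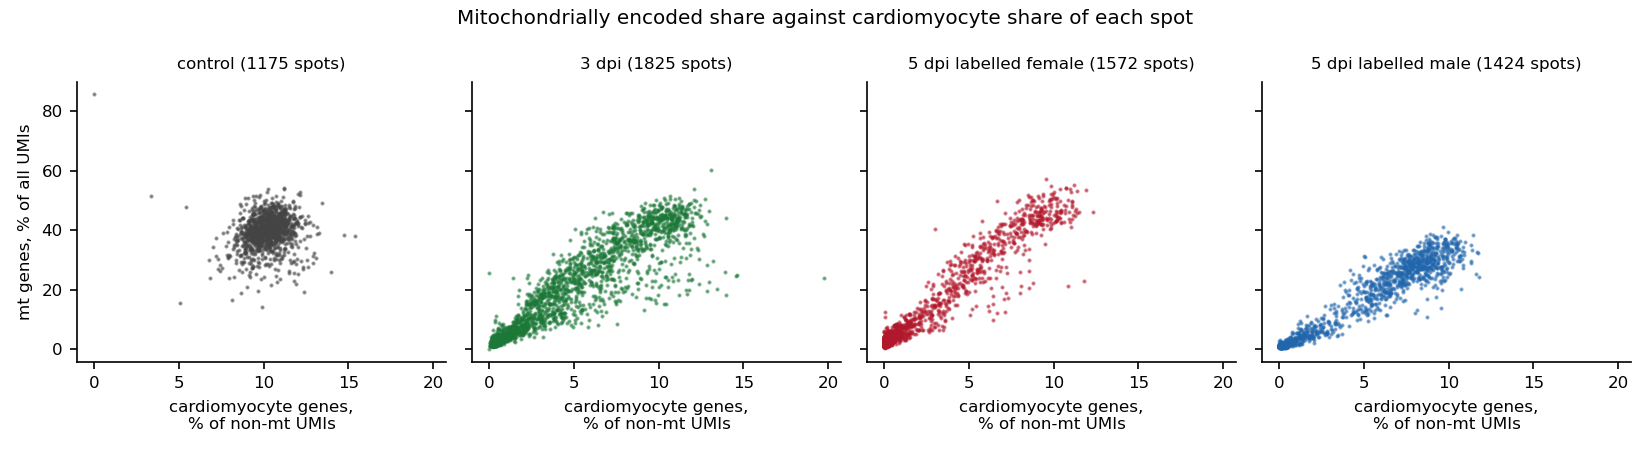
Percentage of each spot's UMIs from the 13 mitochondrially encoded genes (y axis) against the percentage of its non-mt UMIs from 12 cardiomyocyte genes (x axis), 1 point per tissue spot and 1 panel per section. In the infarcted panels the points climb together from near 0, with Pearson's r of 0.891, 0.969 and 0.963.

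The share of the 10 transcripts was higher in each richer cardiomyocyte class of every infarcted heart. At 3 dpi it was 5.43% of all UMIs in poor spots, 17.4% in low, 28.1% in intermediate and 39.2% in rich spots. The female-labelled heart gave 3.34%, 16.6%, 27.9% and 43.0%, and the male-labelled heart 2.07%, 11%, 20.3% and 28.7%. The control gave 33.4% in its 49 intermediate spots and 40.4% in rich spots. The ranges of the classes over the 3 infarcted hearts did not overlap, although the rich spots of the male-labelled heart (28.7%) stood close to the intermediate spots at 3 dpi (28.1%). Over spots, the share of the 10 transcripts correlated with the cardiomyocyte share. Pearson's r was 0.891, 0.969 and 0.963 in the infarcted sections and 0.106 in the control. These values describe 1175 to 1825 spots that share 1 library per section. Within rich spots r was 0.0953 without infarction and 0.109 at 3 dpi, against 0.556 and 0.438 in the later pair of hearts.

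Spots in the same bin of cardiomyocyte share did not carry the same mt share in the 4 hearts. Where the 12 genes made up 10 to 15% of non-mt UMIs, the 10 transcripts took 41.2% of all UMIs in the control (703 spots), 41.6% at 3 dpi (271 spots), 47.0% in the female-labelled heart (60 spots) and 32.3% in the male-labelled heart (61 spots). At 5 to 10% the values were 38.8%, 31.1%, 37.6% and 25.8%. At 2 to 5% the infarcted sections gave 15.2%, 17.9% and 11.1%, and below 2% they gave 4.15%, 3.21% and 1.93%. The bins did not hold the cardiomyocyte share equal. Its median at 5 to 10% was 9.42% in the control and 7.39%, 7.49% and 7.76% in the infarcted hearts. Below 2% it was 0.887%, 0.144% and 0.186% in the infarcted hearts, and at 10 to 15% it lay between 10.5% and 10.9%. The part of these medians in the mt differences was not tested. The male-labelled heart was the lowest in each of these bins, also with 4 cardiomyocyte genes in place of 12. With 4 genes the 3 dpi heart had 37.2% at 10 to 15% and lay below the control (41.1%), so their order depended on the genes chosen, and the male-labelled heart had 8.60% at 2 to 5%. It differed from the other 5 dpi heart by more than the control and 3 dpi hearts differed from each other at 10 to 15%, and no test was made, the control and 3 dpi having 1 heart each.

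**Figure D3:**
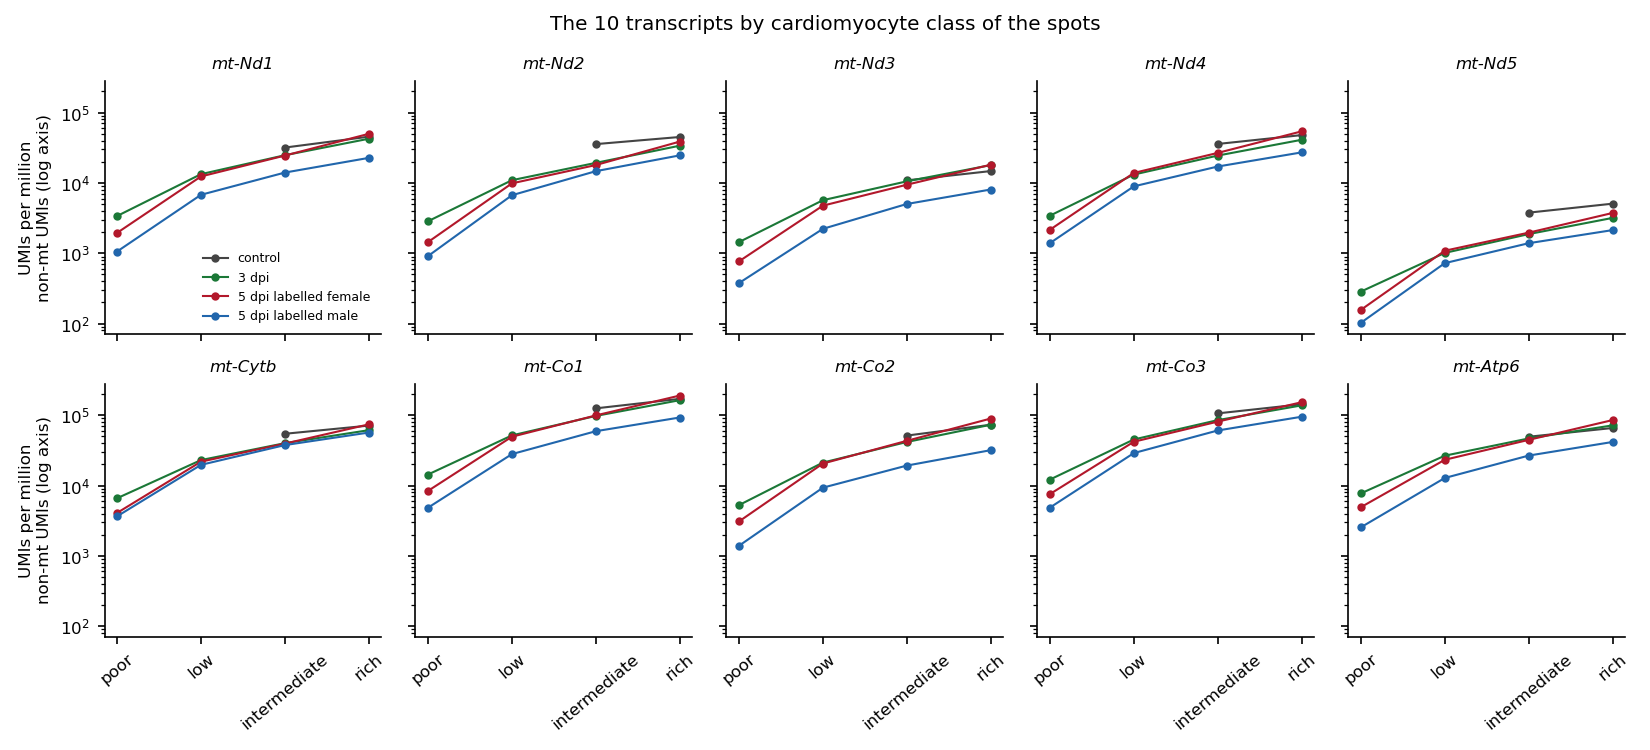
CPM (UMIs per 1000000 non-mt UMIs, log axis) of each of the 10 transcripts by cardiomyocyte class of the spots, 1 panel per transcript and 1 line per section; classes under 10 spots are left out. Every line of the infarcted sections climbs from poor to rich, and the male-labelled heart runs lowest in every panel.

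Between poor and rich spots each of the 10 transcripts differed by more than 10-fold on average. mt-Co2 had 72979.5 CPM in rich and 5261 in poor spots at 3 dpi, 89398 and 3084 in the female-labelled heart, and 31763 and 1392 in the male-labelled heart. All 3 poor values lay under all 3 rich values. The difference was −4.39 ± 0.54 on the log2 scale (SD, n = 3), or a 20.9-fold lower mean level in poor spots. mt-Nd2 was 20.4-fold lower (−4.35 ± 0.68), with 33796 against 2854 at 3 dpi, 38654 against 1444 in the female-labelled heart and 24624 against 913 in the male-labelled heart. The smallest differences were those of mt-Cytb, 13.8-fold (−3.78 ± 0.51), and mt-Atp6, 13.8-fold (−3.78 ± 0.50). For mt-Cytb the rich spots held 61108, 73889 and 56558 and the poor spots 6593, 4079 and 3649 CPM. The other 6 lay between 16.5-fold (mt-Co3) and 19-fold (mt-Nd1).

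The 12 sums per section and class of the infarcted hearts were tested across 10807 genes with edgeR's quasi-likelihood test, with the section as a block and TMM scaling. The classes were set without mt UMIs. The p-values rest on the spread of the 12 sums around the fit, pooled over all 4 classes and moderated across genes. They do not measure the spread of the poor-to-rich difference over the 3 hearts alone. TMM scaling moved the poor-to-rich log2 values by −1.09 relative to library size, and the values that follow are relative to it. All 10 transcripts were lower in poor than in rich spots, beside 27.9% of all genes tested, and none was higher, beside 29.5%. Their median log2 fold change was −4.60, against 0.06 over all genes. It ran from −4.84 ± 0.19 (SE) for mt-Co2, with a Benjamini-Hochberg adjusted p of 6.42e-14 by edgeR, to −4.24 ± 0.18 for mt-Cytb, with an adjusted p of 1.04e-13 by edgeR. Ranked from the most reduced gene, mt-Co2 took place 44 and mt-Cytb place 91 of 10807. mt-Atp8 and mt-Nd4l were tested as well and were lower, with log2 fold changes of −4.72 and −4.74. Without TMM the median of the 10 was −3.51, and scaled to non-mt UMIs it was −4.13.

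In low against rich spots all 10 transcripts were again lower, beside 15.7% of genes, and none was higher, beside 14.7%. The log2 fold changes lay between −2.18 (mt-Co2) and −1.85 (mt-Cytb), with a median of −2.04 and a TMM shift of −0.72. In intermediate against rich spots 10 of 10 were lower, beside 6.5% of genes, and none was higher, beside 3.82%. These log2 fold changes lay between −1.09 (mt-Nd2) and −0.91 (mt-Cytb), with a median of −0.99 and a TMM shift of −0.45. In this last comparison both the calls and the sizes depended on the setting. The median was −0.54 without TMM (9 of 10 lower) and −0.79 scaled to non-mt UMIs (10 of 10 lower). Without the female-labelled 5 dpi heart 4 of the 10 passed the threshold, with a median log2 fold change of −0.91, and the count of all genes called went from 1115 to 350. Without the male-labelled heart that count was 637, with all 10 still lower. Without the section block 1 of the 10 passed (median −1.0035), and with spots ranked into 4 equal classes 0 passed (median −1.38).

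Markers of other cells differed between the classes, in both directions. The 8 macrophage genes, all detected in every class, summed to 9417 to 12603 CPM in the poor spots of the 3 infarcted hearts and to 1262 to 1685 in their rich spots, and 8 of 8 were called higher in poor spots by edgeR. The 7 fibroblast genes summed to 14087 to 25204 in poor and 3359 to 5121 in rich spots, with 5 of 7 called higher and 2 called lower in poor spots. Of the neutrophil genes 3 of 3 tested were called higher, with sums of 246 to 342 in poor and 24.5 to 77.0 in rich spots, and of the mural cell genes 4 of 5 were called higher and 1 lower, with sums of 1113 to 2330.4 and 610.05 to 885. The 6 endothelial genes were called lower in poor spots (6 of 6) and summed to 966 to 1729 CPM there and 1898 to 3563 in rich spots. The 5 erythroid genes were called lower too (5 of 5), with sums of 3720 to 22552 in poor and 6287 to 26295 in rich spots. Without TMM 2 of the endothelial genes were lower and 2 higher, and 0 of the erythroid genes passed. Poor spots were not shallower, with medians of 6345, 7091 and 7134 UMIs against 5222, 6606 and 6009 in rich spots. The part of these cells in the lower mt levels was not tested. In rich spots, 8 genes of border zone cardiomyocytes summed to 11427, 19146 and 11946 CPM in the infarcted hearts and 4670 in the control. Low spots held 35133, 42376.5 and 53558 CPM of them and intermediate spots 28775, 45760 and 38123, in the same order of infarcted hearts. Poor spots held 12434.5, 8134 and 11949. Against rich spots 3 of 8 were called higher in low and in intermediate spots, and 6 of 8 lower in poor spots.

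Rich spots of the infarcted hearts were then set beside those of the control. Here none of the 10 was at least 2-fold lower in every infarcted heart, beside 0.206% of 2915 genes, and none was 2-fold higher in every one, beside 3.81%. In rich spots mt-Co1 was at 170299 CPM without infarction, 163009 at 3 dpi, 189684 in the female-labelled heart and 92531 in the male-labelled heart. mt-Atp6 was at 65644, 71502, 85045 and 41552 in that order. For most of the 10 the control thus lay among the infarcted hearts, with the male-labelled heart below all. mt-Nd5 and mt-Nd2 were the exceptions, being lower than the control in all 3 infarcted hearts. mt-Nd5 was at 5070 in the control and 3182, 3740.0 and 2135 in the infarcted hearts, and mt-Nd2 at 44948 and 33796, 38654 and 24624. No test against the single control was made.

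Complex IV transcripts took 56.5% of mt UMIs without infarction and 57.0% at 3 dpi, then 56.7% and 54.2%, and complex I transcripts took 23.1%, 21.0%, 21.0% and 20.7%. In the male-labelled heart, mt-Cytb took 14.5% of mt UMIs, against 10.4% in the control, 10.0% at 3 dpi and 10.3% in the female-labelled heart. mt-Co2 took 7.70% there, against 10.7%, 10.7% and 11.1%. mt-Nd5 took 0.742% of mt UMIs in the control and 0.487%, 0.497% and 0.533% in the infarcted hearts. The control was also the highest for mt-Nd2, with 6.59% against 5.12%, 4.86% and 5.88%, and for mt-Nd1 and mt-Nd4. For mt-Atp6 the control was the lowest, with 9.61% against 11.7%, 11.8% and 10.4%. The male-labelled heart stood apart in every class, with 14.0% to 17.2% for mt-Cytb and 6.58% to 7.89% for mt-Co2.

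Poor and rich spots differed in this composition within each infarcted heart, by far less than in the total. The share of mt-Cytb in mt UMIs was 11.5% in poor and 9.46% in rich spots at 3 dpi, 11.8% and 9.77% in the female-labelled heart, and 17.2% and 14.0% in the male-labelled heart. The change was 0.28 ± 0.01 on the log2 scale (SD, n = 3), higher in 3 of 3 hearts. mt-Atp6 had a higher share in poor spots too, with 13.4%, 14.2% and 12.0% against 11.1%, 11.2% and 10.3% in rich spots (0.28 ± 0.06). mt-Co2 went the other way in 3 of 3, with 9.14%, 8.92% and 6.58% in poor against 11.3%, 11.8% and 7.89% in rich spots (−0.32 ± 0.07). mt-Nd2 (−0.29 ± 0.21), mt-Nd1 (−0.18 ± 0.03), mt-Nd3 (−0.14 ± 0.03), mt-Nd4 (−0.11 ± 0.08) and mt-Co1 (−0.02 ± 0.02) were also lower in 3 of 3 hearts, although the mean of mt-Co1 turned to 0.0102 with 4 cardiomyocyte genes and to 0.0849 with spots ranked into 4 equal classes. mt-Nd5 and mt-Co3 did not go 1 way in all hearts. The exact sign-flip permutation test (two-sided) gave p = 0.25 for each of the 8 transcripts that did. This is the smallest value that 3 hearts allow, so the test could call no member and decides nothing about the shares.

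**Figure D4:**
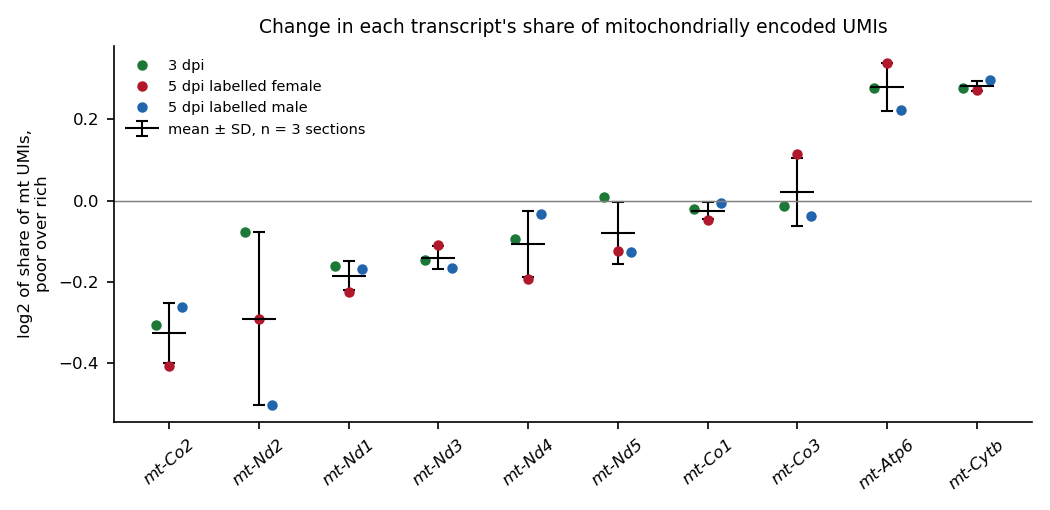
Log2 of the share of mt UMIs in poor over that in rich spots for each of the 10 transcripts (y axis), with 1 point per infarcted section and bars for the mean ± SD over 3 sections. mt-Cytb and mt-Atp6 lie above 0 in all 3 sections, with means of 0.28, and mt-Co2 lies the lowest at −0.32.

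The nuclear-encoded subunits of the same complexes were lower in poor spots too, mostly by smaller amounts. All 36 complex I genes tested were lower, with a median log2 fold change of −2.58, from −3.25 for Ndufa5 to −1.82 for Ndufc2. All 4 genes of complex II, which has no mitochondrially encoded subunit, were lower, from −3.00 for Sdhb to −2.45 for Sdhd. Complex III gave 9 of 9 with a median of −2.89, from −3.32 for Uqcrfs1, the iron-sulphur subunit, to −2.39 for Uqcr10. Complex V gave 17 of 17 with a median of −2.70, from −3.39 for Atp5g1 to −1.10 for Atp5g2. Thus the medians of these lists lay above the smallest change of the 10 mt transcripts, −4.24.

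Complex IV was the most uneven, with 13 of 14 genes lower and a median of −2.68. Cox8b, the heart and muscle isoform of subunit 8, had −5.45 ± 0.27 (SE), with an adjusted p of 1.15e-12 by edgeR. Cox6a1, the isoform of subunit 6a found in most tissues, had −0.15 ± 0.12, with an adjusted p of 0.305 by edgeR. Without TMM, where 8174 of 10807 genes were called higher and the median of all genes was 1.14, Cox6a1 had 0.94 and Cox8a 0.57, both called higher, and Atp5g2 of complex V had −0.01. Scaled to non-mt UMIs Cox6a1 was called higher as well, at 0.32 against a median of 0.52 over all genes. Medians of the 5 lists lay below 0 without TMM, between −1.80 and −1.49.

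The number of mt UMIs per nuclear UMI therefore differed between the classes. Counted over the 10 transcripts and the 80 nuclear subunit genes, it was 3.82 in rich and 1.39 in poor spots at 3 dpi, 5.01 and 1.13 in the female-labelled heart, and 2.20 and 0.639 in the male-labelled heart. The control had 3.19 in rich spots. The log2 ratio of poor to rich was −1.80 ± 0.34 (SD, n = 3), lower in 3 of 3 hearts, and the exact sign-flip permutation test (two-sided) gave p = 0.25, the smallest possible with 3. The step was −0.52 ± 0.19 from rich to low and −0.20 ± 0.09 from rich to intermediate spots. By complex, the poor-to-rich value was −2.10 ± 0.41 for complex I, −1.49 ± 0.32 for complex III, −1.66 ± 0.33 for complex IV and −1.61 ± 0.33 for complex V. Within each heart complex I had the lowest value, with −1.66, −2.47 and −2.16 in the order 3 dpi, female-labelled and male-labelled, against −1.38 to −1.19, −2.02 to −1.82 and −1.67 to −1.46 for the other complexes. The differences between complexes were not tested.

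**Figure D5:**
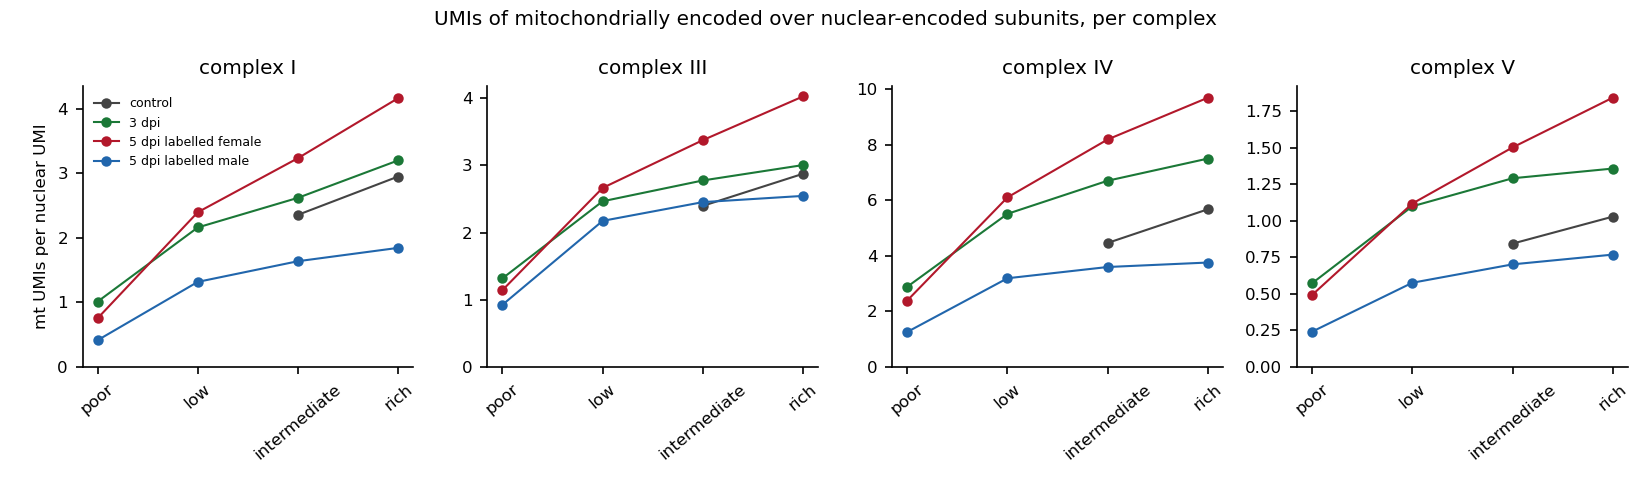
UMIs of mitochondrially encoded subunits per UMI of nuclear-encoded subunits of the same complex (y axis, from 0) by cardiomyocyte class, 1 panel per complex and 1 line per section; classes under 10 spots are left out. Each infarcted line climbs from poor to rich, and in rich spots complex IV runs from 3.75 in the male-labelled heart to 9.69 in the female-labelled heart.

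A list of genes for the upkeep and expression of the mitochondrial genome holds replication and maintenance factors such as Polg and Twnk beside those that make, process or stabilise its RNA. Of 25 listed genes 23 were tested, 16 were lower in poor spots and none was higher, with a median log2 fold change of −0.78. Leaving out TMM, which moves all genes alike, gave 5 lower and 4 higher with a median of 0.31, below the 1.14 of all genes. Scaled to non-mt UMIs 11 were lower, with a median of −0.30 against 0.52 over all genes. Slirp, which with Lrpprc binds and stabilises mt mRNAs, was the most abundant of them. It had 129, 102 and 104 CPM in poor and 142, 145 and 186 in rich spots of the 3 infarcted hearts. Hsd17b10, a subunit of mitochondrial RNase P, had 57.6, 61.1 and 53.0 in poor and 138, 112 and 133 in rich spots. Fastk, an RNA-binding protein of mitochondria, had 69.0, 54.3 and 52.7 in poor and 157, 107 and 117 in rich spots. Their log2 fold changes under TMM were −0.97, −1.63 and −1.58.

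The nuclear genes whose level was most like that of the 10 transcripts were sought over 14 sums per section and class, which the cardiomyocyte share had set. Over these, the log2 level of 2736 genes with at least 50 CPM on average was correlated with that of the summed transcripts, as a description over sums that share sections. Ryr2, the calcium release channel of the sarcoplasmic reticulum and 1 of the 12 genes that set the classes, had the highest Pearson's r, 0.990. It was followed by Trdn, which anchors that channel's complex (0.990), Sgca, a sarcoglycan of the muscle membrane (0.990), Slc4a3, an anion exchanger (0.990), and Slc16a1, a lactate transporter (0.988). The 12 cardiomyocyte genes had a median r of 0.976 and the 80 nuclear respiratory chain genes one of 0.941 with a minimum of −0.589, against −0.417 over all genes ranked. Trdn had 35.9, 19.1 and 18.5 CPM in poor spots and 289, 265 and 172 in rich spots of the infarcted hearts.

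Spots without any UMI of the 12 cardiomyocyte genes still held mt UMIs. In the female-labelled heart there were 55 such spots with a median of 3470 UMIs, and the 10 transcripts made up 1.81% of their UMIs (exact 95% binomial interval 1.75% to 1.86%). In the male-labelled heart there were 10, with 0.974% (0.879% to 1.08%). The control and 3 dpi sections had only 1 and 2, with 7 and 56 UMIs in all. RNA that spreads between spots and the mitochondria of other cells cannot be told apart here.

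The authors' filter removes spots above 50% mt UMIs, so the highest spots are lost with it. The control had 22 such spots and the 3 dpi section 12, with 32 in the female-labelled heart and none of 1424 in the male-labelled heart, which allows a share of up to 0.211%. Of these, 20, 12 and 32 were rich spots, and 2, 0 and 0 had under 500 UMIs. Their median UMI count was 5177 in the control, 4456 at 3 dpi and 7714 in the female-labelled heart. Removing them with the other filters changed the share of the 10 transcripts from 14.2% to 13.3% in the female-labelled heart, and by less elsewhere.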

How the data were processed

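The deposited tables hold unnormalized UMI counts for each gene in each spot, which the authors made with Space Ranger. The labels name build mm10, while the study's methods name a later Ensembl annotation, so sequences and positions are those of GENCODE M21 (GRCm38), matched by Ensembl identifier. Reads that also match nuclear copies of mitochondrial sequence could be lost or misplaced. Spots marked as tissue were used without a filter on mt UMIs, and 623 unmarked spots of the male-labelled heart were left out of the comparisons. UMIs were summed per section and class. Tests used edgeR 4.0.16 (limma 3.58.1, R 4.3.3) with the default filter on low counts, TMM, the section as a block and Benjamini-Hochberg adjustment at 0.05, and were tested on simulated data. Hearts, not spots, are the replicates, and their separate origin is as labelled. Settings tried were DESeq2 1.42.0, library size alone, non-mt library size, no filter, no block, a spot filter (at least 500 UMIs, at least 250 genes, at most 50% mt UMIs), 4 cardiomyocyte genes, spots ranked by cardiomyocyte share into 4 equal classes and leaving out each section. Named outside the 10 transcripts were, per nuclear list, the genes with the highest and lowest log2 fold change. Also named were the 3 most abundant genes of the mitochondrial genome expression list and the 5 genes most alike. Cox8a, Cox6a2 and Cox7a1 were added after their values were seen. Polg, Twnk and Lrpprc are named for what they do, without values. Members and lists were chosen with earlier results of these data known.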

Additional observations from a re-analysis of the deposited data

Results flagged for a closer look

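The share of mt-Nd5 in mt UMIs, poor over rich, differed in sign between the times after infarction, with a value near 0 at 3 dpi. It was 0.00998 on the log2 scale in the 3 dpi section, and −0.12 and −0.12 in the 5 dpi sections. These rest on 931, 1058 and 433 UMIs of mt-Nd5 in the poor spots, where its share was 0.496% (exact 95% binomial interval 0.465% to 0.529%) at 3 dpi against 0.493% (0.480% to 0.506%) in the rich spots. In the same order of poor against rich, the intervals were 0.427% to 0.482% against 0.480% to 0.509% in the female-labelled heart and 0.441% to 0.534% against 0.515% to 0.545% in the male-labelled heart. The difference between the times was not tested, because 3 dpi has 1 section.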

How the results depend on the processing

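In poor and low against rich spots all 10 transcripts stayed lower under each alternative, and those comparisons' counts of genes called stayed within 1.5 times of 6201 and 3283 except without TMM (9314 and 6839). Without TMM the split of higher against lower genes also moved, from 3186 and 3015 to 8174 and 1140 for poor, from 1588 and 1695 to 6312 and 527 for low, and from 413 and 702 to 2943 and 194 for intermediate spots, of 3137 called. Scaled to non-mt UMIs, a setting chosen after seeing the data, the splits were 5416 and 1890, 2884 and 1048, and 991 and 393. Intermediate against rich was the least stable: without the section block 278 genes and 1 of the 10 transcripts passed, with 4 equal spot classes 539 genes and 0 transcripts (adjusted p 0.0865 to 0.129 by edgeR, with log2 fold changes of −1.47 to −1.24), and with each section left out in turn 350 to 922 genes and 4 to 10 transcripts. Without TMM mt-Cytb alone missed the threshold there. The section shares became 39.99%, 21.4% and 13.3% for control, 3 dpi and the female-labelled heart with the spot filter, 13.0% for the male-labelled heart with its unmarked spots, and 40.1%, 21.3%, 5.14% and 15.3% as medians over spots. The mean change in the share of mt-Co1 turned to 0.0102 with 4 cardiomyocyte genes and 0.0849 with 4 equal classes, and that of mt-Co3 ran from −0.0259 (without the female-labelled heart) to 0.0509 with each heart left out. Of the 28 values recomputed in bins of cardiomyocyte share 9 moved, each in the control or at 3 dpi. The error there was the exact 95% binomial interval. The 5 dpi values were judged by a wider measure, the SD of the 5 dpi pair, and some left their binomial intervals. With 4 cardiomyocyte genes the male-labelled heart went from 11.1% to 8.60% at 2 to 5%. With the spot filter the female-labelled heart went from 47.0% to 45.0% at 10 to 15%. The mt-to-nuclear log2 ratio kept its sign throughout (−2.35 to −1.62). The cause of these changes was not tested. Hearts limit the precision more than depth.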

Other observations

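Some spots rich in cardiomyocyte RNA had few mt UMIs. With a limit set after seeing the data, an mt share under 0.6 times the median of the section's rich spots, they numbered 12 of 1122 rich spots in the control, 48 of 527 at 3 dpi, 15 of 292 in the female-labelled 5 dpi heart and 8 of 509 in the male-labelled heart. At 3 dpi their mt share was 20.8% against 40.1% in the other rich spots, while their cardiomyocyte share was 9.33% against 9.91%. On average 64.7% of the rich neighbours of such a spot were of the same kind at 3 dpi, 35.6% in the female-labelled heart, 19.0% in the male-labelled heart and 9.03% in the control, against 2.93%, 2.19%, 1.15% and 0.781% of the rich neighbours of the other rich spots. In CPM (UMIs per 1000000 non-mt UMIs), border cardiomyocyte genes summed to 16971 in them against 11072 in the other rich spots at 3 dpi, 26835 against 18930 in the female-labelled heart, 11004 against 11957 in the male-labelled heart and 6221 against 4657 in the control. Macrophage genes summed to 1394 against 1480 at 3 dpi, 2873 against 1651 in the female-labelled heart, 1206 against 1262 in the male-labelled heart and 691 against 769.8 in the control. Fibroblast genes were higher in them in all 4 sections, with 4865 against 4046 at 3 dpi, 10292 against 4975 in the female-labelled heart, 4204 against 3349 in the male-labelled heart and 5299 against 2597 in the control. Erythroid genes summed to 6090.4 against 6299.7 at 3 dpi, 39526 against 25923 in the female-labelled heart, 28004 against 14358 in the male-labelled heart and 7899.7 against 7603 in the control. Atrial genes summed to 5726 against 4177 at 3 dpi, 12818 against 6609 in the female-labelled heart, 1243 against 3544 in the male-labelled heart and 987 against 378 in the control. Such spots were shallower in all 4 sections, with medians of 1412 against 3145 non-mt UMIs at 3 dpi, 2159 against 3856 in the female-labelled heart, 2986 against 4251 in the male-labelled heart and 2536 against 2976 in the control.

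The balance of mt-Cytb to mt-Co2 UMIs, also chosen after seeing the data, shifted along with the mt share inside each infarcted section. It went from 0.837 in rich to 1.25 in poor spots at 3 dpi, from 0.827 to 1.32 in the female-labelled heart and from 1.78 to 2.62 in the male-labelled heart. In the low-mt rich spots it was 1.58 against 0.824 in the other rich spots at 3 dpi, 1.22 against 0.823 in the female-labelled heart, 2.86 against 1.78 in the male-labelled heart, and 1.25 against 0.971 in the control. mt-Atp6 did not follow in these spots at 3 dpi, with 11.1% of mt UMIs in both kinds. Its share in them was 10.8% against 11.2% in the female-labelled heart and 10.2% against 10.3% in the male-labelled heart. In the control it was 10.0% against 9.61%.

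The 623 spots of the male-labelled heart that are not marked as tissue held 8.20% of their UMIs in the 10 transcripts, with a cardiomyocyte share of 1.69%. There mt-Cytb took 12.4% and mt-Co2 10.6% of mt UMIs, against 14.5% and 7.70% in the tissue spots of that section.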
